A study of Mus musculus with 96 samples.

Results

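The enzymes described here break down amino acids in the liver. Of 42 listed genes, 38 were found by an annotation to exactly 1 gene symbol and entered the test, among 14813 genes tested on the array. Where a gene had several probe sets, the one with the highest mean log2 signal over all arrays stood for it. Sds, Sdsl, Tdh and Gls2 were not analysed here. The filter on low signals removed none of the 38.

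The liver removes surplus amino acids by taking off the amino group, which goes to urea, and by oxidising the remaining carbon skeleton or turning it into glucose or ketone bodies. Several enzymes that start such a route, among them the tyrosine aminotransferase Tat and the tryptophan dioxygenase Tdo2, are known targets of glucocorticoids and fasting signals. The branched-chain amino acids are an exception, since their transamination takes place mostly outside the liver, while the liver is rich in the dehydrogenase complex that commits their keto acids to oxidation.

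Livers came from 96 male mice of 6 strains, with 8 mice in each of 12 groups and 1 mouse per Affymetrix array. The strains were DBA/2J, CBA/J, 129S1/SvImJ, C3H/HeJ and C57BL6/J, with B6C3F1/J as a hybrid whose parents are C3H/HeJ and C57BL6/J. In each, mice ate a diet restricted by 25% in calories or the control diet. All mice were housed alone, received 84 kcal per week of a purified diet from 6 to 8 weeks of age, and then stayed on their assigned diet until tissue was taken at 22 weeks of age. Values are log2 of the deposited MAS5 signal, each difference is restricted minus control, and a call is an adjusted p under 0.05 from limma over all genes tested. The 6 hepatocyte markers measured lay far above the array median, and in bulk liver fewer cells of a type and less RNA per cell cannot be told apart.

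Some arrays stood apart before any result. DBA/2J restricted replicate 6 had a median log2 signal of 8.30, and B6C3F1/J control replicate 2 one of 8.66, against 6.21 to 7.50 on the other 94 arrays. On these 2 arrays the mean of the 38 enzymes was 10.98 and 10.84, against 12.40 to 13.29 on the others. The 3' minus 5' signal of the control probes, a sign of RNA quality, was 2.51 for Gapdh and 4.86 for actin on the DBA/2J array and 0.10 and 1.63 on the B6C3F1/J array, where the other 94 arrays spanned -0.54 to 0.25 and 0.45 to 2.02. In CBA/J the array median lay between 6.99 and 7.50 in restricted mice and between 6.42 and 6.63 in control mice, without overlap (exact permutation p = 0.00016, the smallest possible, adjusted p = 0.0034 over 66 comparisons). The Gapdh 3' minus 5' signal was also without overlap there, with a mean of -0.03 in restricted and -0.40 in control mice (exact permutation p = 0.00016, adjusted p = 0.0034). Restricted CBA/J mice exceeded their controls in the hepatocyte marker list by 1.59, in the lymphocyte list by 1.56 and in the cholangiocyte list by 1.33 (adjusted p = 0.00342, 0.0128 and 0.0469), although all lymphocyte and cholangiocyte markers had mean signals below the mean array median. Diet and these properties of the arrays cannot be told apart in CBA/J, so the main results of the 38 enzymes are given with and without these arrays.

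**Figure D1:**
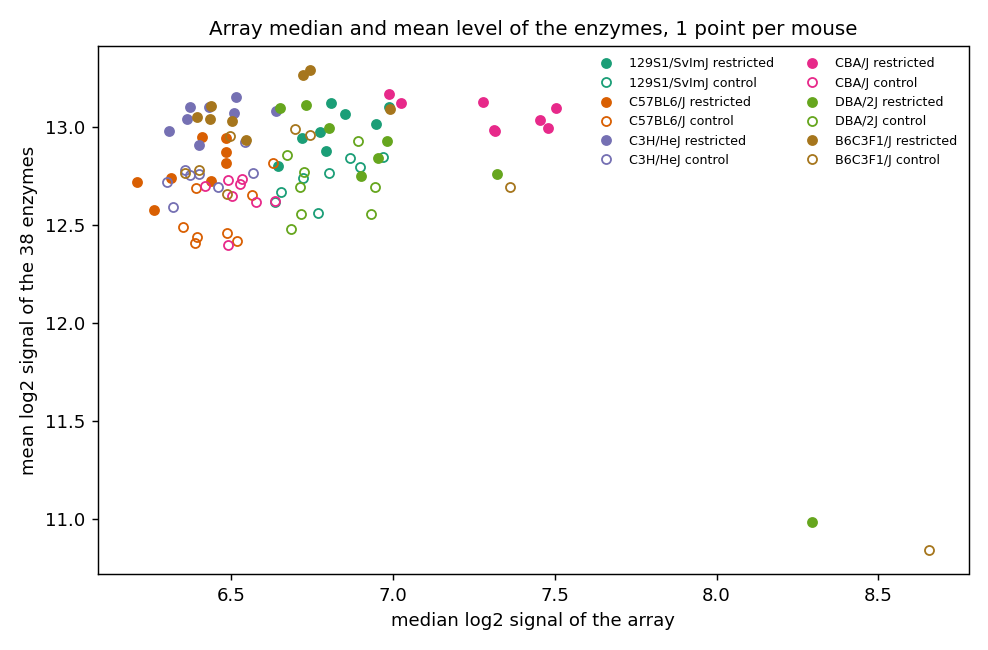
Mean log2 signal of the 38 enzymes (vertical axis) against the median log2 signal of the array (horizontal axis), 1 point per mouse, filled for restricted and open for control, coloured by strain. The 2 arrays with medians of 8.30 and 8.66 lie far below the rest in enzyme signal, and the CBA/J restricted arrays lie to the right of the CBA/J control arrays.

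The 4 members with the largest averaged rise are introduced by the 250 bases upstream of the start of transcription, since they have the largest rises described below. The sequences are from RefSeq, build GRCm38.p6, written 5′ to 3′ on the strand of the gene. Capitals mark matches, on either strand, to any of 9 short motifs searched.
Etnppl, chr3:130617198-130617447, plus strand: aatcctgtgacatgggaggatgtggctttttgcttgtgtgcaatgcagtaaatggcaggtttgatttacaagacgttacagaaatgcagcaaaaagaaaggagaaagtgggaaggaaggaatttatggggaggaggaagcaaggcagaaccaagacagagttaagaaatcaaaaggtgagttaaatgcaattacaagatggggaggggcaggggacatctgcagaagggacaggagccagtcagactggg
Tat, chr8:109990186-109990435, plus strand: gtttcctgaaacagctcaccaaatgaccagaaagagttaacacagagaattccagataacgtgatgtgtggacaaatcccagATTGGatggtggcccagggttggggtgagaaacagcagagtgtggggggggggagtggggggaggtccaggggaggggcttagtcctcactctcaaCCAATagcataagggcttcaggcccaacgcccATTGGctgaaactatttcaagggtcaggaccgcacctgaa
Prodh, chr16:18089191-18089440, minus strand: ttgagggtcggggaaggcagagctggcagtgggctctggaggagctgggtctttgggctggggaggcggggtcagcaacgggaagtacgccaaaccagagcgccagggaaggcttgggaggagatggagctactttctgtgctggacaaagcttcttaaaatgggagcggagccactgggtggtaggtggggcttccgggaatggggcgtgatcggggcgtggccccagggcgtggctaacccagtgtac
Hgd, chr16:37579903-37580152, plus strand: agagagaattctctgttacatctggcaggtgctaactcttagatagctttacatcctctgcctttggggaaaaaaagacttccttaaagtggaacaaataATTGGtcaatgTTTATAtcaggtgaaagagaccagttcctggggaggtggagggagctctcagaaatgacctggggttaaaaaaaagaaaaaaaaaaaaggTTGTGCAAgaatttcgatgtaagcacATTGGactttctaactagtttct

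Tat held the CCAAT motif at 3 places of its window, with first bases at -168, -72 and -40 relative to the start. Hgd held CCAAT with first bases at -150 and -23. It also held the letters TATAAA, read on the opposite strand, with the first base at -139. At -49 it held a match to TTGCNNAA, the letters bound by C/EBP factors. Another match of Hgd to TTGCNNAA, with the first base at 14, lies past the start and outside the bases printed. No searched motif was found in the windows of Etnppl and Prodh, which says only that these letters are not in these windows. For Etnppl the table holds 2 windows and the one shown was searched. Motif shares over all members and all promoters follow after the expression results.

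Averaged over the 6 strains, restriction raised 22 of the 38 enzymes, which is 57.9%, where 15.2% of all genes tested were called higher. The fall was called for 3 enzymes, or 7.89%, where 12.4% of all genes were called lower. The median difference of the 38 enzymes was 0.25, and that of all genes was 0.07. The strongest rises were in the ethanolamine phosphate lyase Etnppl, in Tat and Hgd of tyrosine breakdown, in the proline dehydrogenase Prodh, in the propionyl-CoA carboxylase subunit Pcca and in the ornithine aminotransferase Oat. Without the CBA/J arrays 15 enzymes were called higher and 2 lower, Afmid and Bckdk, where 9.36% and 8.11% of all genes were. Without the 2 arrays with high medians 30 were called higher and 3 lower, where 18.7% and 15.1% of all genes were. Without both sets of arrays the counts were 24 and 2, where 12.4% and 11.8% of all genes were called. A group of 14 of the 22 enzymes was called higher in all 3 of these fits, namely Etnppl, Tat, Prodh, Hgd, Pcca, Mccc1, Hal, Agxt, Qdpr, Dbt, Ivd, Bckdhb, Agxt2 and Hibch.

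In tyrosine and phenylalanine breakdown 6 of 6 measured enzymes were called higher on average, where 15.2% of all genes were. Without CBA/J 3 of them were called higher, where 9.36% of all genes were. Without the 2 arrays with high medians the count was 6 (18.7% of all genes), and without both sets 5 (12.4%). Tat, which removes the amino group of tyrosine, ranged over 9.91, 14.89 and 15.79 (lowest, median and highest) in 48 restricted mice and over 12.25, 13.84 and 15.39 in 48 control mice. The lowest value of each diet came from one of the 2 arrays with high medians, and the diets overlapped over all strains. Within strains, the restricted mice lay above all control mice in C3H/HeJ, CBA/J and B6C3F1/J. The averaged difference was 1.01 ± 0.14 (SE, adjusted p = 5.02e-09), a 2.02-fold rise, and it was positive in 6 of 6 strains.

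Hgd, the dioxygenase that opens the ring of homogentisate, showed 13.83, 15.01 and 15.63 in restricted mice and 11.96, 14.26 and 14.77 in control mice. It rose by 0.74 ± 0.07 (adjusted p = 4.82e-15), or 1.67-fold, with positive differences in 6 of 6 strains and no overlap in C3H/HeJ, CBA/J and B6C3F1/J. A lesser probe set of Hgd rose by 0.47 on average, with 0.09 in CBA/J. Qdpr, which regenerates a biopterin cofactor, rose by 0.50 ± 0.07, with positive differences in 5 of 6 strains. CBA/J was the exception, at -0.44 ± 0.17 (adjusted p = 0.0264). A second Qdpr probe set rose by 0.70 on average and gave 0.07 in CBA/J, so the fall there was not seen with it.

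Hpd, the dioxygenase that makes homogentisate, was different in kind. Its averaged difference of 0.29 ± 0.08 (adjusted p = 0.00579) came from CBA/J, where restricted mice had 17.17, 17.90 and 18.05 and control mice 15.84, 16.09 and 16.23 (lowest, median and highest). The CBA/J groups did not overlap and differed by 1.70, while the other 5 strains gave -0.26 to 0.33. With quantile normalization the CBA/J difference of Hpd was 0.21 and not called (adjusted p = 0.108). Without CBA/J the Hpd average was 0.01 (adjusted p = 0.982). Fah, the hydrolase of the closing step, rose by 0.36 and Pcbd1, a dehydratase of the biopterin cycle, by 0.33. Without CBA/J the values were 0.28 and 0.23, not called (adjusted p = 0.063 and 0.12), and both were called when the 2 arrays with high medians were left out as well (adjusted p = 0.000592 and 0.00101).

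**Figure D2:**
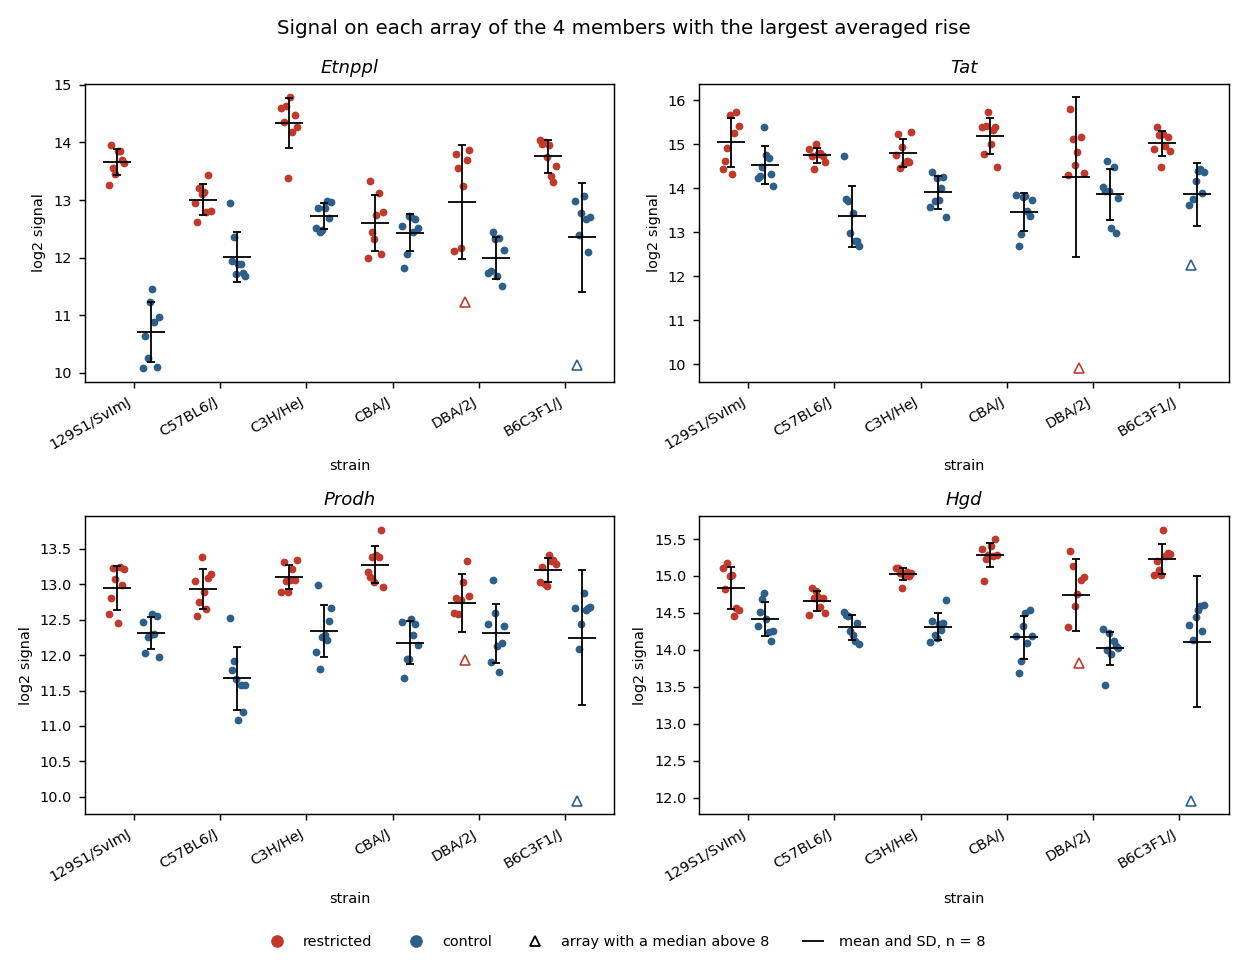
Log2 signal on each array for Etnppl, Tat, Prodh and Hgd by strain, restricted mice to the left of control mice, with the mean and SD of 8 mice and triangles for the 2 arrays with a median above 8. The mean of the restricted mice lies above that of the control mice in each strain. For every gene the 2 groups overlap in some strains, as for Etnppl in CBA/J.

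Among the 3 remaining aminotransferase-type enzymes, Etnppl, Agxt and Agxt2, each was called higher on average and in all 3 fits that left arrays out. On average 15.2% of all genes were called higher. Etnppl, which cleaves phosphoethanolamine and is related in sequence to aminotransferases, had 11.23, 13.44 and 14.79 in restricted mice and 10.08, 12.34 and 13.06 in control mice. Its averaged rise of 1.35 ± 0.10 (adjusted p = 3.37e-20) was the largest of the 38 and amounted to 2.55-fold. Agxt, which detoxifies glyoxylate with alanine as donor, rose by 0.51 ± 0.08, with restricted mice above all control mice in C3H/HeJ and CBA/J. Agxt2, the mitochondrial counterpart, rose by 0.28, with 5 strains between 0.22 and 0.53 and CBA/J at -0.35 (adjusted p = 0.0896).

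In proline and ornithine breakdown, 3 of 4 enzymes were called higher, where 15.2% of all genes were. Without CBA/J 1 of the 4 was called higher, where 9.36% of all genes were. Without the 2 arrays with high medians the count was 4 (18.7% of all genes), and without both sets 3 (12.4%). Prodh, which starts the oxidation of proline, had 11.93, 13.05 and 13.77 in restricted mice and 9.95, 12.27 and 13.06 in control mice. It rose by 0.86 ± 0.08 (adjusted p = 4.76e-15), or 1.81-fold, was positive in 6 of 6 strains and was called in 5 of them. The restricted groups lay wholly above the control groups in C57BL6/J, CBA/J and B6C3F1/J. Its relative Prodh2, which oxidises hydroxyproline, did not pass the test, at 0.07 (adjusted p = 0.75), with 0.57 in CBA/J and -0.88 in DBA/2J. Without the 2 arrays with high medians the DBA/2J difference was -0.16 (adjusted p = 0.597) and the average was called higher, at 0.14 (adjusted p = 0.0465).

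Oat, which turns ornithine into the precursor of proline and glutamate, had 11.25, 14.92 and 15.84 in restricted mice and 12.85, 14.29 and 15.49 in control mice. The diets overlapped, and the averaged rise of 0.57 ± 0.11 (adjusted p = 1.17e-05) covered differences of both signs. Oat rose by 1.80 in CBA/J and 0.94 in C3H/HeJ and gave -0.21 in 129S1/SvImJ and -0.14 in C57BL6/J. Without CBA/J the average was 0.32 (adjusted p = 0.0641), and without the 2 arrays with high medians as well it was 0.36 (adjusted p = 0.000528). Aldh4a1, which takes the shared intermediate of proline and ornithine to glutamate, rose by 0.40 (adjusted p = 0.0203) and lost the call without CBA/J (adjusted p = 0.332), though not when the 2 arrays with high medians were left out too (adjusted p = 0.00196).

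The breakdown of branched-chain amino acids held 15 measured genes, with a median difference of 0.22. Of these 7 were called higher and 1 lower, where 15.2% and 12.4% of all genes were. Without CBA/J 6 were called higher, where 9.36% of all genes were. Without the 2 arrays with high medians the count was 12 (18.7% of all genes), and without both sets 8 (12.4%). Pcca, the biotin-bearing subunit of propionyl-CoA carboxylase, had 11.33, 12.49 and 13.11 in restricted mice and 10.61, 11.94 and 12.32 in control mice. It rose by 0.59 ± 0.06 (adjusted p = 1.95e-15), or 1.51-fold, and the groups did not overlap in 129S1/SvImJ, C3H/HeJ, CBA/J and B6C3F1/J. Its partner subunit Pccb gave 0.13 (adjusted p = 0.0696), and was called higher without the 2 arrays with high medians, at 0.15 (adjusted p = 0.00115). Mccc1, the matching subunit of the leucine-specific carboxylase, rose by 0.56 ± 0.07, while its partner Mccc2 gave 0.10 (adjusted p = 0.408), and 0.12 without those arrays (adjusted p = 0.0480). The difference between partner subunits was not tested.

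Of the branched-chain dehydrogenase complex, the core subunit Dbt rose by 0.36, the decarboxylase subunits Bckdhb and Bckdha by 0.33 and 0.22, and the call of Bckdha was lost without CBA/J (adjusted p = 0.43). Bckdk, the kinase that switches the complex off, gave -0.09 on average (adjusted p = 0.428), with 0.81 in CBA/J and -0.67 in DBA/2J. Without CBA/J it was called lower, at -0.27 (adjusted p = 0.0203). Of the later steps, Ivd of leucine rose by 0.36 and Hibch of valine by 0.26. A second Hibch probe set gave -0.02 on average and -1.62 in CBA/J, where the chosen one gave 0.10.

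Aldh6a1, the dehydrogenase that ends the valine route, was the branched-chain enzyme called lower. It had 11.94, 13.57 and 13.90 in restricted mice and 10.92, 13.59 and 14.38 in control mice, overlapping almost wholly. The averaged fall was -0.20 ± 0.08 (adjusted p = 0.0436) and rested on CBA/J, at -1.19, since the average without CBA/J was -0.00 (adjusted p = 0.997). Acad8, which acts earlier in the valine route, gave 0.15 (adjusted p = 0.0532) with the chosen probe set. A dimmer Acad8 probe set gave -0.58 on average and -1.67 in CBA/J, against 0.25 there with the chosen one.

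In tryptophan breakdown 1 of 4 enzymes was called higher and 1 lower, where 15.2% and 12.4% of all genes were, so these counts are near the background. Tdo2, which opens the ring of tryptophan, gave 15.08, 15.84 and 17.20 in restricted mice and 14.48, 15.73 and 16.56 in control mice, overlapping widely. Its rise of 0.22 (adjusted p = 0.0097) came from CBA/J, at 1.15, and the average without CBA/J was 0.04 (adjusted p = 0.82). With quantile normalization the CBA/J difference of Tdo2 was 0.06 and not called (adjusted p = 0.653). The other probe sets of Tdo2 gave 0.09 and -0.07 on average, and 0.69 and -0.38 in CBA/J.

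Afmid, the formamidase that follows Tdo2, had 4.78, 11.54 and 12.46 in restricted mice and 9.98, 12.03 and 13.07 in control mice. The lowest restricted value came from DBA/2J replicate 6. Afmid fell by 0.62 on the log2 scale (SE 0.17, adjusted p = 0.00269), the largest fall of the 38, with negative differences in 5 of 6 strains and 0.06 in CBA/J. Without CBA/J the difference was -0.76, without the 2 arrays with high medians it was -0.55 (adjusted p = 5.59e-07), and 2 of its 3 other probe sets were called lower too, at -0.38 and -0.49. Kynu and Aadat, which act on kynurenine, gave 0.16 and 0.09 on average and were not called over all arrays. Kynu was called higher without the 2 arrays with high medians, at 0.16 (adjusted p = 0.0428).

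In histidine breakdown Hal, the lyase of the opening step, rose by 0.52 ± 0.09, and Ftcd, which hands the formimino group to folate, by 0.24 ± 0.07. Without CBA/J the Ftcd average was 0.20 and not called (adjusted p = 0.0722). Amdhd1, an enzyme between Hal and Ftcd, had 8.20, 11.16 and 12.67 in restricted mice and 9.09, 11.45 and 12.32 in control mice. It fell by 0.32 on the log2 scale (SE 0.09, adjusted p = 0.00576), of which CBA/J, at -1.51, held the most, and the call was lost without CBA/J (adjusted p = 0.706). Its other probe set gave -0.23 on average and -1.02 in CBA/J. Uroc1, the urocanase, gave -0.02 and was not called. The lysine enzymes Aass and Gcdh gave 0.19 and 0.04 and were not called over all arrays. Aass was called higher without CBA/J, at 0.34 (adjusted p = 0.00601), and without the 2 arrays with high medians, at 0.18 (adjusted p = 0.0158). Without both sets of arrays Gcdh was called too, at 0.15 (adjusted p = 0.00846).

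Within single strains the number of enzymes called differed widely. In 129S1/SvImJ 6 were higher and 0 lower, where 2.79% of all genes were called higher and 2.47% lower. Etnppl led with 2.95 ± 0.25, followed by Dbt with 0.84. In C57BL6/J 4 were higher and 0 lower, where 1.86% and 1.85% of all genes were called, and Tat led with 1.38 ± 0.34. There the actin 3' minus 5' signal averaged 1.07 in restricted and 0.81 in control mice (exact permutation, adjusted p = 0.0164), and the endothelial marker list 9.98 in restricted and 9.79 in control mice (adjusted p = 0.0359). Their part in the result was not tested. In C3H/HeJ 6 were higher and 0 lower, where 1.1% and 0.851% of all genes were called, and Etnppl led with 1.61 ± 0.25.

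CBA/J had 19 enzymes higher and 4 lower, but there 25.1% of all genes were called higher and 15.6% lower, and the median of all genes was 0.31. Oat led the rises with 1.80 ± 0.26, and Amdhd1 the falls with -1.51 ± 0.23. With quantile normalization, which brought the CBA/J median of all genes to 0.07, 14 were higher and 3 lower. In DBA/2J 4 were higher and 4 lower, where 2.3% and 4.45% of all genes were called. Qdpr led the rises with 1.09 ± 0.17 and Afmid the falls with -1.68 ± 0.41. The Qdpr rise includes restricted replicate 6, at 16.37 against a group median of 15.41. Without the 2 arrays with high medians, of which 1 is a DBA/2J restricted array, 13 were higher and 2 lower in DBA/2J, where 3.92% and 4.42% of all genes were called, and Afmid stood at -0.88.

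In B6C3F1/J 11 were higher and 0 lower, where 3.35% and 1.26% of all genes were called, with Etnppl at 1.41 ± 0.25. Without the 2 arrays with high medians 8 were higher and 1, Afmid at -1.11, was lower, where 2.36% and 2.19% of all genes were called, and Etnppl stood at 1.09. Etnppl, Prodh and Pcca were each called higher in 5 of 6 strains. Another 14 of the 38 enzymes were called higher in no strain. Per strain, 1.1% (C3H/HeJ) to 25.1% (CBA/J) of all genes were called higher. Calls by number of strains were not counted over all genes, so these counts have no background.

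**Figure D3:**
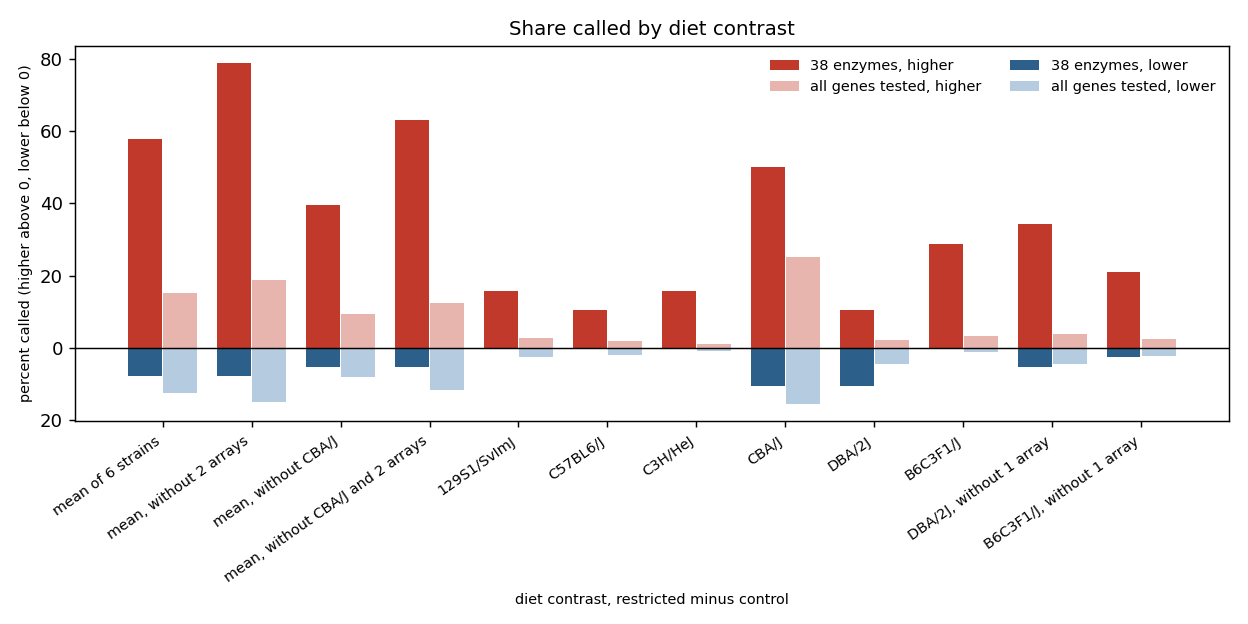
Share of the 38 enzymes (dark bars) and of all genes tested (pale bars) called higher, above 0, or lower, below 0, for the averaged diet difference, each strain, and fits that left arrays out. The averaged share of enzymes called higher was 57.9%, where 15.2% of all genes were, and in CBA/J the background itself reached 25.1%.

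An F test of the interaction asked whether the diet difference varied between strains. It called 18 of 38 enzymes, or 47.4%, where 23.9% of all genes were called. Without CBA/J 2 of the 38 were called, Etnppl and Mccc2, where 1.55% of all genes were. Without CBA/J and both arrays with high medians 5 were called, Etnppl, Oat, Mccc2, Kynu and Amdhd1, where 3.96% of all genes were. The 5 smallest adjusted p-values in the fit of all arrays belonged to Etnppl, Hpd, Amdhd1, Qdpr and Oat.

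Etnppl gave the smallest interaction p (adjusted p = 8.07e-08, and 0.000966 without CBA/J). In 129S1/SvImJ its lowest, median and highest values were 13.27, 13.66 and 13.96 in restricted mice and 10.08, 10.76 and 11.46 in control mice, with no overlap and a difference of 2.95. In C3H/HeJ they were 13.39, 14.41 and 14.79 in restricted mice and 12.45, 12.77 and 12.98 in control mice, also with no overlap. In CBA/J they were 11.99, 12.59 and 13.34 in restricted mice and 11.83, 12.53 and 12.72 in control mice, which overlapped and differed by 0.16 (adjusted p = 0.617). The 129S1/SvImJ rise exceeded the mean of the other 5 strains by 1.93 ± 0.28 (adjusted p = 1.71e-06), and by 1.71 with CBA/J left out (adjusted p = 0.00032). Over all arrays Etnppl was the 1 enzyme called for 129S1/SvImJ in that contrast, where 0.398% of all genes were called higher and 0.689% lower. Without the 2 arrays with high medians Oat, at -0.97 (adjusted p = 0.000729), and Hpd, at -0.69 (adjusted p = 0.00391), were called lower as well, where 1.67% of all genes were. The second, dimmer Etnppl probe set gave 1.94 in 129S1/SvImJ and -0.21 in CBA/J.

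For C57BL6/J, Amdhd1 was the 1 enzyme called against the other strains over all arrays. Restricted C57BL6/J mice had 12.13, 12.49 and 12.67 and control mice 11.61, 11.98 and 12.32, a positive difference of 0.49 that overlapped and missed the call within the strain. It exceeded the mean of the other strains by 0.96 ± 0.25 (adjusted p = 0.0382), where 0.304% of all genes were called higher and 0.392% lower, and by 0.70 with CBA/J left out (adjusted p = 0.446). With the 2 arrays of high median left out as well it was 0.71 (adjusted p = 0.0157). Without those 2 arrays alone 2 enzymes were called higher for C57BL6/J, Amdhd1 and Prodh, where 1.4% of all genes were, and 5 lower, Oat, Agxt, Tdo2, Hpd and Hgd, where 1.77% were. For CBA/J against the other strains 11 enzymes were called higher, where 18.7% of all genes were, and 7 lower, where 13.6% were. Hpd led the rises at 1.69 and Amdhd1 the falls at -1.44. With quantile normalization the diet difference within CBA/J was 0.21 for Hpd (adjusted p = 0.108) and -1.36 for Amdhd1 (adjusted p = 0.000404). In DBA/2J the Qdpr rise was larger than elsewhere by 0.70 (adjusted p = 0.0470), where 0.081% of all genes were called higher, and the Mccc2 difference was lower, at -0.93 (adjusted p = 0.0288), where 0.587% were called lower. Without CBA/J the Qdpr value was 0.49 (adjusted p = 0.189), and without the 2 arrays with high medians the Mccc2 value was -0.52 (adjusted p = 0.0262). The DBA/2J restricted array with the high median had Qdpr at 16.37, above its group median of 15.41, which enters the Qdpr contrast over all arrays. None of the 38 was called for C3H/HeJ, where 0.0743% of all genes were called higher and 0.0405% lower, or for B6C3F1/J, where 0.23% and 0.054% were.

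On the control diet, levels differed between strains for 28 of 38 enzymes, or 73.7%, where 43.7% of all genes were called by the F test over the 6 control groups. Without the 2 arrays with high medians 36 were called, where 52.3% of all genes were, and without CBA/J 21, where 38.9% were. Etnppl differed most (adjusted p = 8.68e-10). Its control means were 10.71 ± 0.52 in 129S1/SvImJ, 11.99 ± 0.36 in DBA/2J, 12.02 ± 0.43 in C57BL6/J, 12.35 ± 0.94 in B6C3F1/J, 12.44 ± 0.32 in CBA/J and 12.73 ± 0.22 in C3H/HeJ (SD, n = 8 each). Only the 129S1/SvImJ mean lay clear of its neighbour by more than their spread, with a difference of -1.60 ± 0.20 from the mean of the other strains (adjusted p = 1.44e-10). The strain with the lowest control level of Etnppl was thus the strain with the largest rise, and both contrasts use the same 129S1/SvImJ control mice.

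Set against the mean of the other strains, control 129S1/SvImJ had 7 enzymes higher, where 6.17% of all genes were, and 2 lower, where 6.58% were. Control C57BL6/J had 2 higher (8.68% of all genes) and 8 lower (7.59%), among them Aldh4a1 at -0.92, Hpd at -0.64 and Prodh at -0.61. Control C3H/HeJ had 3 higher (5.83%) and 1 lower (4.18%), and control CBA/J 4 higher (5.52%), with Qdpr at 0.73, and 2 lower (6.59%). Control DBA/2J had 5 higher (7.25%) and 3 lower (7.36%), and control B6C3F1/J 0 higher (3.48%) and 3 lower (7.67%), namely Aass, Qdpr and Aldh6a1.

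Aadat, the aminotransferase of kynurenine and of the lysine product aminoadipate, was highest in 129S1/SvImJ, at 12.45, 12.81 and 13.05 (lowest, median and highest), against medians of 11.89 to 12.29 in the other strains. Its 129S1/SvImJ level exceeded the mean of the others by 0.75 ± 0.12 (adjusted p = 4.81e-07). Bckdhb was lowest in C57BL6/J, at 11.90, 12.25 and 12.72, and highest in CBA/J, at 12.87, 13.52 and 13.73, with no overlap between these strains. The C57BL6/J level lay below the others by -0.82 ± 0.16 (adjusted p = 5.89e-05). Oat was high in C57BL6/J, with a median of 15.08, and in 129S1/SvImJ, with 14.89, and its median lay between 13.70 and 14.54 elsewhere. Acadsb, an acyl-CoA dehydrogenase of the isoleucine route, ran from a median of 11.18 in C57BL6/J to 11.88 in CBA/J.

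**Figure D4:**
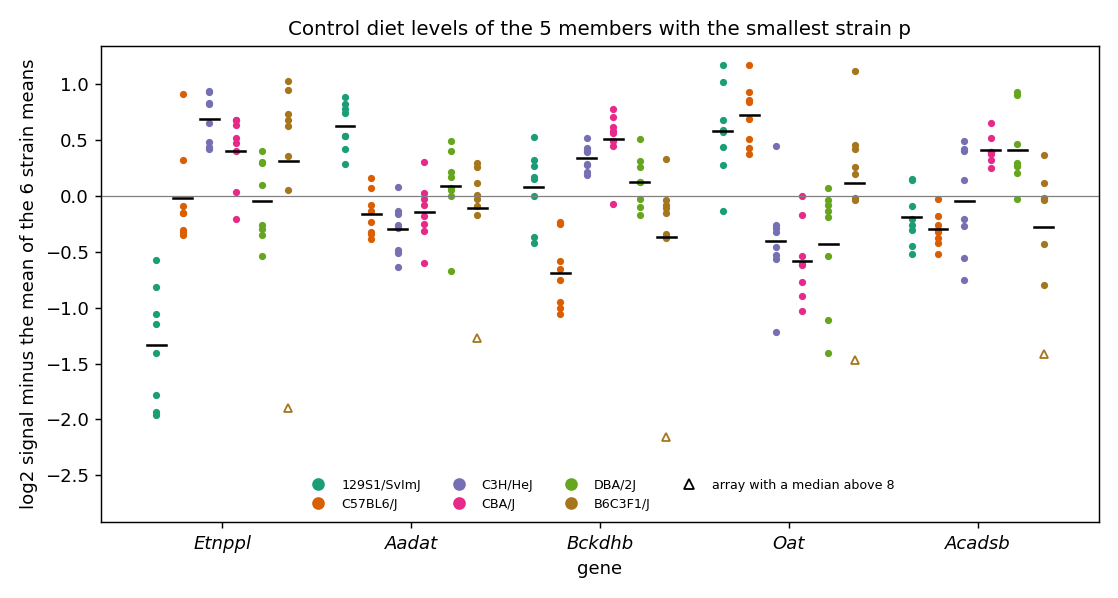
Log2 signal of control mice, less the mean of the 6 strain means, for the 5 enzymes with the smallest p over the control groups, 1 point per mouse and a bar at each strain mean. Etnppl is lowest in 129S1/SvImJ, Aadat is highest there, Bckdhb is lowest in C57BL6/J, and the B6C3F1/J array with a high median is a triangle.

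Against the mean of its parents, control B6C3F1/J had 0 enzymes higher and 2 lower, where 2.72% of all genes were higher and 6.22% lower. Aass, the lysine enzyme, had 10.32, 12.78 and 12.97 in B6C3F1/J, against 13.04, 13.24 and 13.70 in C57BL6/J and 12.54, 12.84 and 13.37 in C3H/HeJ, and lay at -0.56 (adjusted p = 0.0339). Qdpr had 12.51, 14.41 and 14.65 in B6C3F1/J, against 14.47, 14.71 and 14.92 in C57BL6/J and 14.13, 14.54 and 14.87 in C3H/HeJ, and lay at -0.42, with an adjusted p that rounds to 0.05 and lies just under it. The lowest B6C3F1/J value of both genes was the array with the high median. Without both such arrays the count turned to 10 higher and 0 lower, where 4.04% and 4.1% of all genes were called. For the diet difference no enzyme was called, where 0% of all genes were higher and 0.00675% lower. The diet difference of B6C3F1/J less that of its parents was 0.06 for Aass and 0.23 for Qdpr.

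Other genes of the same routes were taken from a list of 39, of which 34 were tested, and the others were not analysed here. In the averaged contrast over all arrays 13 were called higher and 2 lower, where 15.2% and 12.4% of all genes were, with a median of 0.14. The cytosolic aspartate aminotransferase Got1 rose by 1.85 ± 0.19, the alanine aminotransferase Gpt by 0.51 ± 0.09, the asparaginase Aspg by 0.50 ± 0.08 and Haao, an oxygenase of the kynurenine route, by 0.43 ± 0.07. The falls were in Grhpr, the glyoxylate reductase, at -0.40 ± 0.07, and in Acat1, the mitochondrial thiolase, at -0.36 ± 0.08. The mitochondrial enzymes Got2 and Gpt2 gave 0.20 (adjusted p = 0.05, just missing the call) and -0.10 (adjusted p = 0.357).

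Of 10 listed regulators of these routes 9 were tested, all arrays included, and 2 rose on average, near the 15.2% of all genes called higher. Foxo1, a forkhead factor held in check by insulin, rose by 0.64 ± 0.11 (adjusted p = 1.46e-06), and Ppargc1a, a coactivator of fasting genes, by 0.47 ± 0.09 (adjusted p = 8.28e-06). Foxo1 was called in CBA/J, at 1.34, C57BL6/J, at 1.02, and 129S1/SvImJ, at 0.85. It gave 0.48 in DBA/2J, 0.11 in B6C3F1/J and 0.05 in C3H/HeJ. Ppargc1a was called in 129S1/SvImJ, at 0.90, and DBA/2J, at 0.80, and gave -0.08 in CBA/J. Klf15, a factor known to act on amino acid breakdown genes, gave 0.20 ± 0.09 (adjusted p = 0.0649). Cebpb, Creb3l3, the glucocorticoid receptor Nr3c1, Cebpa, Hnf4a and the glucagon receptor Gcgr gave 0.09, -0.01, -0.03, -0.07, -0.10 and -0.13, and none was called in the averaged contrast. Within strains, Creb3l3 rose by 0.98, Hnf4a by 0.63, Cebpa by 0.60 and Klf15 by 0.65 in CBA/J, and Gcgr rose by 0.53 in CBA/J and gave -0.66 in DBA/2J (each called, with adjusted p-values from 1.13e-07 to 0.017). In CBA/J 25.1% of all genes were called higher, with a median of all genes of 0.31, and in DBA/2J 4.45% were called lower. Diet and the properties of the CBA/J arrays cannot be told apart in the CBA/J values of these regulators. These are RNA levels, and factor activity was not measured.

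Across mice of the same group, the enzymes varied together, but mostly through 2 arrays. With group means removed, the median of 703 pairwise r values was 0.53 over 96 mice and 0.18 over the 94 mice without the arrays with high medians. Over 96 mice the closest pair was Prodh2 and Aldh4a1, with r = 0.94 and rho = 0.82, and r = 0.82 and rho = 0.77 over 94 mice (permutation p = 1e-05 for each, the smallest possible, adjusted p = 4.99e-05 and 7.99e-05 for r over 703 pairs). Over 94 mice the closest was Fah and Ivd, at r = 0.83 and rho = 0.85. Leaving out the 2 mice farthest from the median of Prodh2 gave r = 0.85 for Prodh2 and Aldh4a1 over the rest of the 96. Fah went with Pcbd1 (r = 0.90, and 0.71 over 94 mice) and with Aldh4a1 (0.87, and 0.82 over 94 mice). Prodh2 also went with Mccc2 and with Gcdh, at r = 0.87 each, and these were 0.55 and 0.38 over 94 mice. The lowest r over 96 mice was that of Qdpr and Aldh4a1, at -0.26 with rho = -0.43 (permutation p = 0.085 and 3e-05). Over 94 mice the lowest were Hpd and Amdhd1, at r = -0.58 and rho = -0.58, and Bckdhb and Hibadh, at r = -0.57 and rho = -0.49 (permutation, adjusted p = 7.99e-05 for each r). Both genes of a pair were read on the same array with the same scaling, which enters every r.

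The promoter table held 36 of the 38 enzymes, each with a window of 250 bases before to 50 after the start, and 27025 genes in all. CCAAT was found in 21 of 36 members, or 58.3%, where 41.1% of all genes held it. TTGCNNAA was found in 8 members and in 12.2% of all genes, and TATAAA in 7 members and 15.7%. CAAAGTCCA, the letters bound by HNF4A, was found in 2 members, Aadat and Agxt2, and in 0.555% of all genes. The core TGACG of the cyclic AMP element stood in 5 members and 23% of all genes, the glucocorticoid core AGAACA in 6 and 21.3%, and the forkhead motif GTAAACA in 2, Auh and Hibadh, and 4.05%. The full cyclic AMP element TGACGTCA and the ATF4 and C/EBP element TGATGNAA stood in 0 members, and in 2.03% and 4.51% of all genes. TGACG lies within TGACGTCA, so their matches overlap. Each motif was read on both strands, and a match describes letters and not binding.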

How the data were processed

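Liver RNA of 96 male mice was labelled with biotin and hybridised to 96 arrays, per the labels' protocols. The deposited intensity values are MAS5 signals on a linear scale, per the submitters' processing notes, and each array had a trimmed mean (highest and lowest 2% left out) of about 500.0. For MAS5, neither version nor settings are stated in the sources at hand, and the number of arrays limits the precision.

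Signals were turned into log2 values. Of 45101 probe sets, 64 controls were left out, and those at or above the array median on at least 8 arrays were kept (32984). A single symbol was annotated to 34945 probe sets, several to 932 and none to 9211; for 34741 the gene table of GRCm38.p6 held the identifier. Of a gene's kept probe sets, the one of highest mean was used, giving 14813 genes. The 38 members had 63 probe sets, 17 having more than 1.

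Group means were fitted for 12 groups with limma 3.58.1 (lmFit, and eBayes with intensity trend and robust variances) in R 4.3.3, with Benjamini-Hochberg adjustment across the 14813 genes and a threshold of 0.05. Contrasts were the diet difference per strain and averaged, the interaction, the control groups, each strain against the mean of the others, and B6C3F1/J against its parents. The averaged and interaction tests were checked on simulated data with independent noise and without arrays that stood apart. Array measures were tested by exact two-sided permutation over 12870 splits, and correlations with 100000 two-sided permutations within groups, in Python 3.11.15 with scipy 1.17.1. Replicate numbers were not treated as pairs. Correlations of same-numbered arrays lay between -0.17 and 0.14, which cannot exclude a pairing.

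The members, gene lists and motifs were chosen with earlier results of these data known. Given in full are the 6 largest rises and the falls called on average, the 5 smallest p of the interaction and of the control groups, the calls of B6C3F1/J against its parents, the largest called rise and fall per strain, the 5 largest and the lowest correlation, the called extremes of the pathway list, and all regulators. Gene positions were not used beyond the promoter windows. The alternatives were quantile normalization, centring on the 75th percentile, an offset of 8.55, other filters, the mean of probe sets, every probe set alone, plain eBayes, array weights, separate fits, blocks, arrays or CBA/J left out, and the array median as covariate. Leaving out CBA/J together with the 2 arrays of high median was chosen after seeing the data, as were correlations without these arrays.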

Additional observations from a re-analysis of the deposited data

Results flagged for a closer look

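Within groups of 8 mice, 168 sets of values were searched for a highest or lowest array far from the rest, and 28 were found, where chance gives about 1 in 20. B6C3F1/J control replicate 2 accounted for 12 and DBA/2J restricted replicate 6 for 8. In DBA/2J restricted replicate 6 the array median was 8.30 and the mean of the 38 enzymes 10.98, with Tat at 9.91, Oat at 11.25, Hpd at 14.16, Amdhd1 at 8.20, Bckdhb at 10.55 and Qdpr, the lone gene above its group, at 16.37. In B6C3F1/J control replicate 2 the array median was 8.66 and the mean of the enzymes 10.84, with Etnppl at 10.14, Tat at 12.25, Prodh at 9.95, Hgd at 11.96, Pcca at 10.61, Oat at 12.85, Amdhd1 at 9.09, Qdpr at 12.51, Aadat at 10.90 and Bckdhb at 10.80.

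The other 8 values were spread over 4 arrays. C3H/HeJ restricted replicate 4 had Etnppl at 13.39 and Hgd at 14.83, both lowest of their group. C57BL6/J restricted replicate 2 had Qdpr at 15.40, highest of its group, and Bckdhb at 12.24, lowest. CBA/J control replicate 2 had the lowest mean of the enzymes, 12.40, and Bckdhb at 12.87, and DBA/2J control replicate 2 had the lowest Hgd, 13.53, and Aadat, 11.49.

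The diet difference varied between strains by limma's F test for 18 enzymes. The adjusted p was 8.07e-08 for Etnppl, 4.08e-07 for Hpd, 5.95e-06 for Amdhd1, 7.42e-06 for Qdpr, 5.63e-05 for Oat and 5.84e-05 for Tdo2. It was 0.000166 for Aldh6a1, 0.000216 for Bckdk, 0.00116 for Aadat, 0.00429 for Mccc2, 0.00561 for Dbt and 0.0138 for Aass. It was 0.0209 for Agxt2, 0.0235 for Kynu, 0.0264 for Agxt, 0.0274 for Aldh4a1, 0.0289 for Bckdha and 0.0311 for Hgd. Of these, Etnppl and Mccc2 were called without CBA/J (adjusted p = 0.000966 and 0.0428), and diet and the property of the CBA/J arrays cannot be told apart.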

How the results depend on the processing

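The averaged count of 22 enzymes called higher lay between 15, without CBA/J, and 31, with the array median as covariate, over the alternatives run. The covariate was fitted over all arrays, the 2 with high medians included, and moved the CBA/J median of the enzymes from 0.50 to 1.05. How far those 2 arrays set its slope was not tested. The 3 called lower became 5 with the mean of the probe sets, where Acad8 turned to -0.22. Counts of enzymes moved by over 1.5 times as follows, and the cause was not tested. The share of all genes called moved too, for the averaged rise from 15.2% to 18.7% without both arrays of high median. That share is not set beside each count of this section, so a moved count is not particular to the enzymes. In 129S1/SvImJ the 6 higher became 2 with centring on the 75th percentile, 12 with array weights, and 11 without both arrays of high median, with or without CBA/J. In C57BL6/J the 4 higher became 7 with quantile normalization, without DBA/2J restricted replicate 6 and with the array median as covariate, 8 without B6C3F1/J control replicate 2, 12 without both arrays, 13 in a fit of that strain alone, 14 without both and CBA/J, and 19 with array weights. In C3H/HeJ the 6 higher became 1 with 75th percentile centring, 15 with array weights and 18 in its own fit. There the 0 lower became 1 with array weights and without both arrays, with or without CBA/J, and 2 in its own fit.

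In CBA/J the 19 higher became 31 and the 4 lower became 2 with the array median as covariate, and the lower count was 7 without both arrays and in its own fit. In DBA/2J the 4 higher became 1 with 75th percentile centring and in its own fit, 10 with the covariate, 11 with array weights and 13 without both arrays, with or without CBA/J. The 4 lower there became 0 in its own fit, 1 with quantile normalization, array weights, the covariate and without DBA/2J restricted replicate 6, and 2 with 75th percentile centring and without both arrays, with or without CBA/J. In B6C3F1/J the 11 higher became 2 in its own fit, 6 without B6C3F1/J control replicate 2 and with the covariate, 7 with the mean of the probe sets and 21 without DBA/2J restricted replicate 6. The 0 lower became 1 with array weights, the covariate and without both arrays, with or without CBA/J.

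The interaction count of 18 became 2 without CBA/J, 5 without CBA/J and both arrays, and 28 with the covariate. For control B6C3F1/J against its parents the 2 called became 0 in its own fit, 1 with 75th percentile centring, no filter, the mean of the probe sets, every probe set alone, plain eBayes or without CBA/J, 4 without either array alone, 5 with the covariate, 9 without both and CBA/J, 10 without both and 12 with array weights. Replicate numbers shared between diets were not treated as pairs in the main fit. With the number as a replicate block, 22 were higher and 3 lower on average, and the parental count was 1; with strain and number as a block, 25 were higher and 3 lower. The number of arrays and the 2 arrays with high medians limit single strains most.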
